A study of Rattus norvegicus with 9 samples.

Results

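The conjugating enzymes of phase II metabolism in rat liver were followed as 34 genes among the 24496 in the count table. They were chosen by symbol alone: 4 UDP-glucuronosyltransferases (UGT), 10 cytosolic sulfotransferases (SULT), 17 glutathione S-transferases (GST) and 3 microsomal glutathione S-transferases (MGST). The 4 FSH rats were female Wistar rats given degarelix, which blocks the pituitary receptor for gonadotropin-releasing hormone, and follicle-stimulating hormone (FSH) at 6 µg per kg per day from osmotic pumps. The 5 vehicle rats carried the same degarelix treatment with vehicle in the pumps. In both groups a western diet began at 10 weeks of age and the ovaries were removed 6 weeks later. Limited feeding (12 days) was followed by free feeding (7 days), and livers were collected at the age of 19 weeks following 4 h without food. Because the vehicle rats were also ovariectomised and given degarelix, the comparison shows FSH against that background and not against intact females.

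Conjugation makes drugs, hormones, bilirubin and bile acids more soluble, so that they can leave the hepatocyte for bile or blood. UGT enzymes sit in the endoplasmic reticulum and transfer glucuronic acid from UDP-glucuronic acid, SULT enzymes transfer sulfate from the cofactor PAPS, and GST enzymes join glutathione to electrophiles. In rat liver these genes are known to respond to the nuclear receptors CAR and PXR, to the aryl hydrocarbon receptor and to NRF2, and several differ between the sexes under growth hormone.

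The 4 FSH libraries held 23430807 to 27008941 counts and the 5 vehicle libraries 19295580 to 28672439 counts. Values are CPM, counts per 1000000 after library scaling and not divided by transcript length, so groups are compared gene by gene between animals. Sums over genes and the choice of the most abundant genes also use CPM, where long transcripts count for more. The liver label fitted the data: all 8 hepatocyte markers were read, at a summed 170200 to 275400 CPM in FSH animals and 193500 to 239200 CPM in vehicle animals. Of these markers 6 of 8 were lower with FSH (median log2 fold change −0.12), and Tat, tyrosine aminotransferase, had −0.88 (FDR 0.340 in edgeR), with every FSH animal below every vehicle animal. The 2 higher markers were Fgb, a fibrinogen chain, at 0.55 (FDR 0.312 in edgeR, groups overlapping) and Tf at 0.01. FSH replicate 1 stood apart, with 19.4% of its counts from albumin against 10.5 to 16.7% in the other 8 libraries. Stellate cell and fibroblast markers summed to 174 to 209 CPM with FSH and 223 to 289 CPM with vehicle, with 8 of 8 lower. The collagen gene Col3a1 made up most of this sum (means of 115 CPM with FSH and 158 CPM with vehicle). The log2 fold changes of these markers ran from −0.92 for Col1a1 to −0.03 for Pdgfrb. Sinusoidal and vascular endothelial markers summed to 192 to 244 CPM with FSH and 153 to 209 CPM with vehicle, with 6 of 7 higher. Erythroid markers summed to 121 to 490.1 CPM with FSH and 75.9 to 157 CPM with vehicle, with 4 of 4 higher. Their part in the results below was not tested, and in whole liver fewer cells of a type and less RNA per cell cannot be told apart.

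No conjugating enzyme gene passed an FDR (Benjamini-Hochberg adjusted p) of 0.05 in edgeR's quasi-likelihood test over all 11924 genes, where 4 genes, or 0.0335%, passed. Of the 28 members with enough counts to test, 23 were lower with FSH and 5 were higher, beside 49.5% of all tested genes that were lower. The median log2 fold change, FSH over vehicle, was −0.25 over these members and 0.00 over all tested genes. At an unadjusted p under 0.05 there were 5 lower members, where 5.14% of all genes were that low, and 1 higher member, where 6.42% of all genes were that high. Every FSH animal lay below every vehicle animal in 2 members, Gstt1 and Gsta2, as in 1.92% of all genes, and the opposite separation occurred in 0 members and 2.19% of all genes. DESeq2's Wald test called 2 members, Gstt1 and Gsta2, both lower, where it called 1.54% of 11503 genes in either direction and 0.582% lower. The count of 6 members under an unadjusted p of 0.05 was 2 without vehicle replicate 1, 3 without FSH replicate 3 and 9 without FSH replicate 1.

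Each class had a median log2 fold change below 0. Of the tested members, 2 of 3 UGT genes were lower (median −0.38), 5 of 7 SULT genes (−0.29), 13 of 15 GST genes (−0.24) and 3 of 3 MGST genes (−0.19). Summed over all 34 members, the class took 6839 to 9344 CPM in FSH animals and 8982 to 10180 CPM in vehicle animals, so that only FSH replicate 1 reached the vehicle range. Ugt2a1 alone took 2883 CPM in FSH replicate 1, 1011 to 1181 CPM in the other FSH animals and 1216 to 3036 CPM in vehicle animals. The order of the animals in this sum, and the place of FSH replicate 1, thus depend heavily on 1 gene. The summed GST counts were 2678 to 3238 CPM with FSH and 3047 to 3714 CPM with vehicle. These groups overlapped through FSH replicate 2 and vehicle replicate 4.

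**Figure D1:**
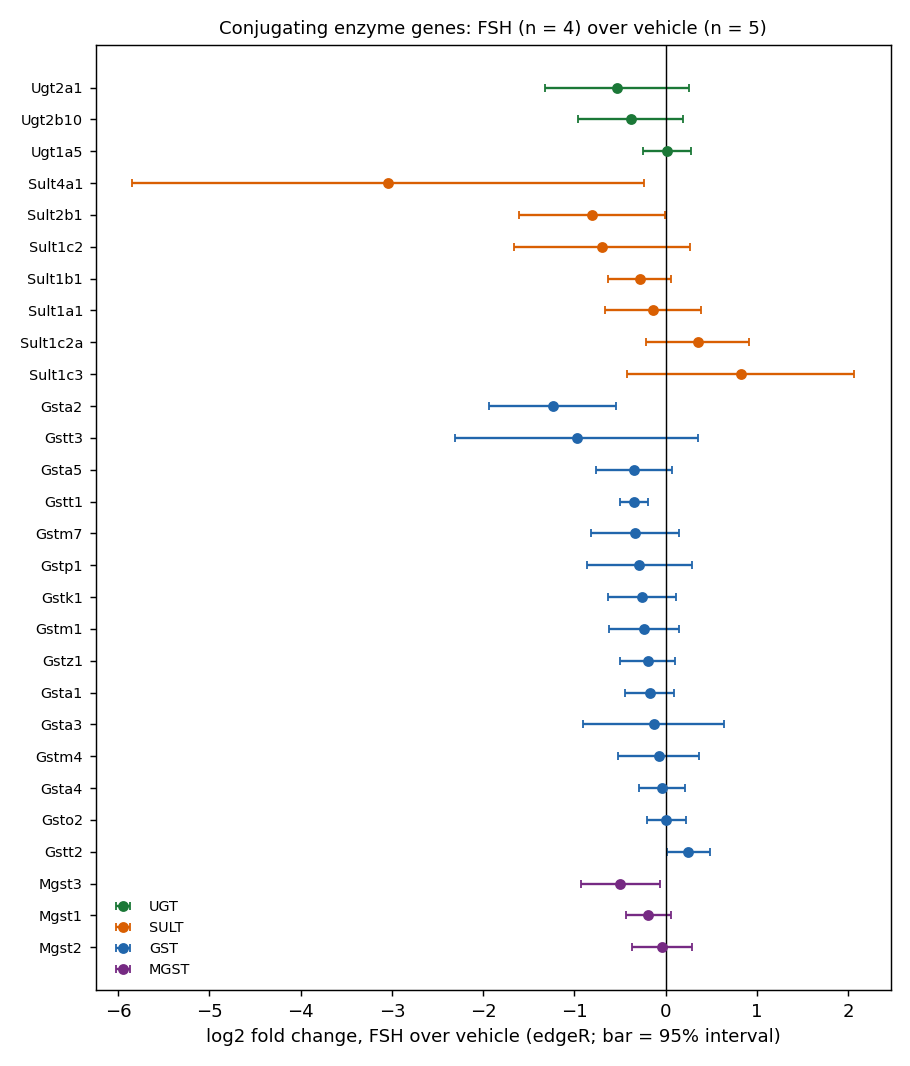
Log2 fold change of the 28 tested conjugating enzyme genes, FSH (n = 4) over vehicle (n = 5), on the x axis, with 95% intervals as bars and colours for the enzyme class. Points for 23 genes lie below 0, and the intervals of 6 genes leave out 0: those of Sult4a1, Sult2b1, Gsta2, Gstt1 and Mgst3 below it and that of Gstt2 above it.

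In the plot of fold changes, Gstt1 had the narrowest interval and Sult4a1 the widest.

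Among the UGT genes, Ugt2a1 and Ugt2b10 differed within the FSH group as much as between groups. Ugt2a1 (ENSRNOG00000001973), a glucuronosyltransferase known from olfactory tissue, held 25170 to 76925 reads in these liver libraries. Whether reads of similar UGT2 genes were counted in it was not tested. It stood at 2883, 1181, 1011 and 1088 CPM in FSH replicates 1 to 4, against 2110, 1886, 1216, 3036 and 2914 CPM in vehicle replicates 1 to 5. FSH replicate 1 was in the upper part of the vehicle range and the other 3 FSH animals were below every vehicle animal. FSH over vehicle, this was a log2 fold change of −0.53 (SE 0.36, FDR 0.607 in edgeR) with all animals and −1.03 (FDR 0.303 in edgeR) without FSH replicate 1.

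Ugt2b10 (ENSRNOG00000001990), of a subfamily that conjugates steroids, bile acids and drugs, had 524, 284, 251 and 219.8 CPM with FSH, against 499, 450.3, 269, 459 and 409.6 CPM with vehicle. As in Ugt2a1, FSH replicate 1 was high, here the highest of all animals, and vehicle replicate 3 was the lowest of its group. This gave a log2 fold change of −0.38 (SE 0.26, FDR 0.612 in edgeR), and −0.73 (FDR 0.291 in edgeR) without FSH replicate 1 and −0.24 without FSH replicate 4. UGT2 genes resemble each other, so their counts are uncertain where reads were shared.

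Ugt1a5 (ENSRNOG00000018740) was the tested member of the UGT1 family, which glucuronidates bilirubin and phenols. It had 494, 487, 439 and 458 CPM with FSH, against 452, 471, 579, 362 and 458 CPM with vehicle. All 4 FSH animals lay inside the vehicle range. The difference on the log2 scale was 0.02 with a 95% interval of −0.25 to 0.28 (FDR 0.97 in edgeR). In RefSeq's GRCr8 annotation the 8 protein-coding Ugt1a genes share 1 end, since different first exons join common last exons, so this count may hold reads of any of them. The remaining UGT member, Ugt2b7, had 0 to 3 reads per library and was not tested.

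**Figure D2:**
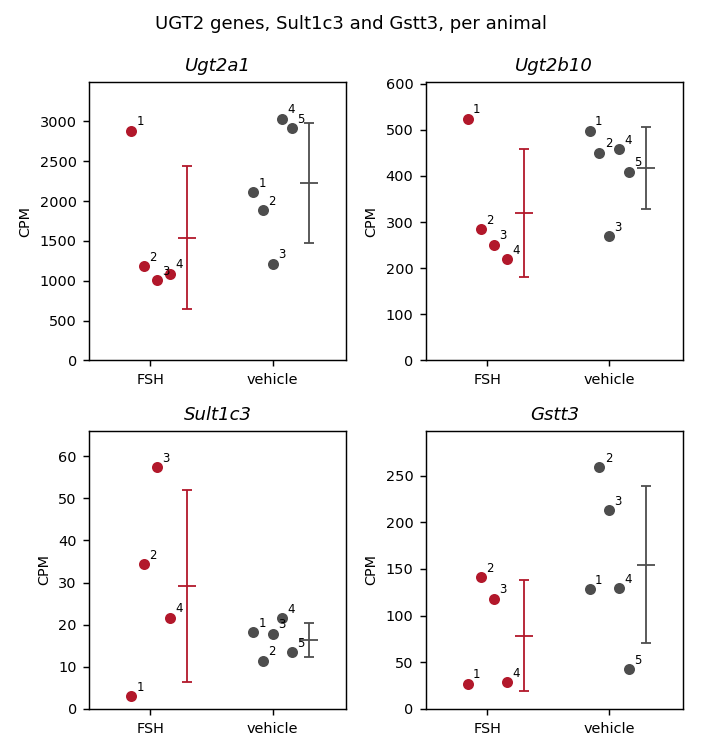
CPM of Ugt2a1, Ugt2b10, Sult1c3 and Gstt3 on the y axes for each FSH animal (left) and vehicle animal (right), numbered by replicate, with the mean and SD as bars. FSH replicate 1 is far above the other FSH animals in Ugt2a1 (2883 CPM) and Ugt2b10 (524 CPM) and lowest of all 9 animals in Sult1c3 (3.06 CPM) and Gstt3 (26.9 CPM).

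The sulfotransferases lay on both sides of 0. Sult1a1 (ENSRNOG00000019342), the phenol sulfotransferase, averaged 289 ± 59.5 CPM with FSH (SD, n = 4) and 318 ± 101.4 CPM with vehicle (SD, n = 5). On the log2 scale it had −0.14 (95% interval −0.66 to 0.38, FDR 0.861 in edgeR), with −0.04 when FSH replicate 1 was left out, 0.03 when vehicle replicate 3 was and −0.30 when vehicle replicate 4 was. Sult1b1 (ENSRNOG00000001967), which sulfates phenols and thyroid hormones, had 162, 142, 100.4 and 131 CPM with FSH, against 181, 142, 133, 201 and 159.7 CPM with vehicle. The groups overlapped, although the lowest 2 values were both in FSH animals. The fold change (log2) came to −0.29 (SE 0.16, FDR 0.517 in edgeR), and to −0.17 without FSH replicate 3.

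The Sult1c genes differed in sign. Sult1c3 (ENSRNOG00000011269), which RefSeq also lists under the older names HAST-I and Sult1c1 and which is known in rat as a hydroxyarylamine sulfotransferase, had the highest fold change of the family. It stood at 3.06, 34.3, 57.4 and 21.7 CPM with FSH, against 18.2, 11.4, 17.8, 21.5 and 13.4 CPM with vehicle. FSH replicates 2, 3 and 4 were above every vehicle animal and FSH replicate 1 was below every vehicle animal. In log2 units the groups differed by 0.82 (SE 0.56, FDR 0.616 in edgeR). It was 1.20 without FSH replicate 1 (FDR 0.275 in edgeR) and 0.25 without FSH replicate 3.

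Hydroxyarylamine sulfotransferase is known as a male-predominant enzyme of rat liver, so the sex-dependent genes are given beside it. In FSH replicate 1 the female-type gene A1bg was at 3076 CPM, against 1362 to 2565 CPM in the other FSH animals and 367 to 1596 CPM in vehicle animals. The male-type gene Cyp2c13 was at 0.596 CPM in that animal, its lowest value. FSH replicate 3 had the lowest A1bg of the FSH animals and the highest Sult1c3. In FSH replicates 2 and 4, however, A1bg (2489 and 2565 CPM) and Sult1c3 (34.3 and 21.7 CPM) were both above every vehicle animal. Vehicle replicate 3 had the lowest A1bg, with Sult1c3 at 17.8 CPM. Both genes had positive log2 fold changes (1.25 for A1bg and 0.82 for Sult1c3). The part of these genes in the Sult1c3 and UGT2 values was not tested.

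Sult1c2a (ENSRNOG00000042111) averaged 72.5 ± 13.1 CPM with FSH and 56.9 ± 18.8 CPM with vehicle, a log2 fold change of 0.35 (SE 0.25, FDR 0.643 in edgeR). Vehicle replicate 1 was low at 25.9 CPM, and without it the fold change was 0.17. Sult1c2 (ENSRNOG00000040215) had low counts, with 12 to 54 reads in FSH libraries and 20 to 61 reads in vehicle libraries. On the log2 scale it had −0.70 (SE 0.44, FDR 0.579 in edgeR), and −1.37 without FSH replicate 1 and −0.46 without FSH replicate 3. The Sult1c genes resemble each other and may share reads.

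Sult4a1 (ENSRNOG00000046975), a sulfotransferase-like protein known from brain with no settled substrate, had the lowest fold change of the family and the least stable one. It stood at 5.00, 0.690, 0.193 and 0.692 CPM with FSH, against 50.6, 8.28, 0.353, 1.82 and 8.19 CPM with vehicle. Vehicle replicate 1 was far above the others, and vehicle replicate 3 was lower than 3 of the 4 FSH animals. The fitted log2 difference was −3.04 (SE 1.27, FDR 0.399 in edgeR), and −1.48 (FDR 0.700 in edgeR) without vehicle replicate 1. It was −4.71 (FDR 0.389 in edgeR) without FSH replicate 1, whose 5.00 CPM was far above the other FSH animals. Sult2b1 (ENSRNOG00000021046), which sulfates cholesterol and pregnenolone, had 1.35, 0.812, 1.23 and 0.994 CPM with FSH, against 3.93, 1.40, 1.48, 1.18 and 1.81 CPM with vehicle. Again vehicle replicate 1 was the highest. FSH over vehicle, this was a log2 fold change of −0.81 (SE 0.36, FDR 0.427 in edgeR), and −0.41 without that animal. Sult1d1 and Sult6b1 were listed at 0 in all 9 libraries, and Sult5a1 had 3 to 10 reads and was not tested.

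The theta class of GST held both the smallest p of the family and its only higher member with an unadjusted p under 0.05. Gstt1 (ENSRNOG00000049771), which conjugates small halogenated molecules, stood at 28.2, 34.7, 32.3 and 31.9 CPM with FSH, against 40.8, 39.2, 39.3, 40.9 and 41.9 CPM with vehicle. The vehicle animals lay within a narrow band and every FSH animal was below it. This gave a log2 fold change of −0.35 (SE 0.07, 95% interval −0.50 to −0.19), short of the threshold at an edgeR FDR of 0.175, and DESeq2's adjusted p was 0.00294. When each of the 9 animals was left out in turn, the fold change lay between −0.40 and −0.29 and the edgeR FDR between 0.141 and 0.329.

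Gstt2 (ENSRNOG00000052415), its close relative on the same chromosome, had the opposite sign. It had 39.1, 44.1, 32.8 and 36.6 CPM with FSH, against 30.4, 27.5, 31.8, 35.7 and 35.2 CPM with vehicle. The groups overlapped through FSH replicate 3 and vehicle replicates 4 and 5. The difference on the log2 scale was 0.25 (SE 0.10, FDR 0.401 in edgeR), between 0.17 and 0.31 on leaving out 1 animal.

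Gstt3 (ENSRNOG00000001242) split the animals in another way. It stood at 26.9, 140.9, 118 and 28.3 CPM with FSH, against 128, 259, 213, 129 and 42.3 CPM with vehicle. FSH replicates 1 and 4 and vehicle replicate 5 were low, and the rest were several times higher, in both groups. The fold change (log2) came to −0.98 (SE 0.60, FDR 0.576 in edgeR). Gstt4, the fourth theta gene, was listed at 0 in all 9 libraries.

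**Figure D3:**
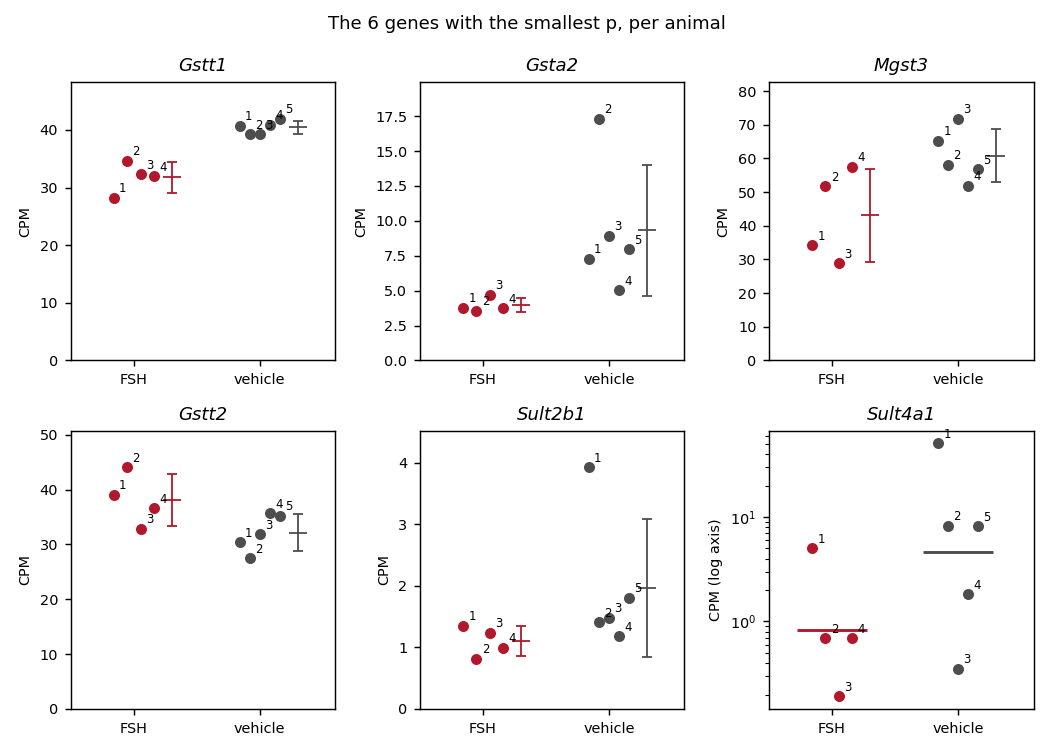
CPM on the y axes for the 6 genes with the smallest p, for each FSH animal (left) and vehicle animal (right), numbered by replicate; bars are mean and SD, except for Sult4a1, drawn on a log axis with the geometric mean as a line. Only in Gstt1 (28.2 to 34.7 CPM with FSH, 39.2 to 41.9 CPM with vehicle) and Gsta2 (3.57 to 4.71 CPM with FSH, 5.05 to 17.3 CPM with vehicle) do the FSH and vehicle animals not overlap.

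Gsta2 (ENSRNOG00000029861), an alpha-class GST, was the lowest cytosolic GST by fold change. It had 3.77, 3.57, 4.71 and 3.76 CPM with FSH, from 87 to 122 reads, against 7.28, 17.3, 8.94, 5.05 and 7.97 CPM with vehicle, from 128 to 481 reads. The FSH animals were close together and below every vehicle animal, while the vehicle animals varied by several fold. In log2 units the groups differed by −1.24 (SE 0.31, 95% interval −1.93 to −0.55, FDR 0.219 in edgeR), and DESeq2's adjusted p was 0.00928. Without vehicle replicate 2, the highest animal, it was −0.89, and it stayed negative in each of the 16 alternatives run.

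The other alpha-class members had smaller differences. Gsta5 (ENSRNOG00000000201) had 107, 73.0, 78.3 and 76.7 CPM with FSH, against 111, 154, 90.6, 81.6 and 96.4 CPM with vehicle. Apart from FSH replicate 1, the FSH animals were below the vehicle range. On the log2 scale it had −0.35 (SE 0.19, FDR 0.510 in edgeR), with −0.49 without FSH replicate 1 and −0.18 without vehicle replicate 2. Gsta1 (ENSRNOG00000013484) averaged 763 ± 112.3 CPM with FSH and 862 ± 93.6 CPM with vehicle at a log2 difference of −0.18 (95% interval −0.44 to 0.09, FDR 0.617 in edgeR), which was −0.26 without FSH replicate 1 and −0.09 without FSH replicate 3. Gsta3 had a log2 fold change of −0.13 whose sign turned with single animals (0.02 without FSH replicate 1, 0.11 without vehicle replicate 2) and in limma-voom (0.05). Gsta4, known to clear 4-hydroxynonenal from lipid peroxidation, had −0.04, and 0.05 without FSH replicate 3. Names of rat alpha-class genes have moved between annotations: RefSeq lists Gsta1 as an older name of Gsta2, and Gsta2 as one of Gsta5. Here the Ensembl identifiers of the count table define each gene, and similar alpha genes may share reads.

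RefSeq promoter windows of 250 bases before to 50 after the annotated start (GRCr8) were found for 27 of the 34 members. They were matched by symbol only, so where symbols were reassigned, as in the alpha class, a window may belong to another gene than the one counted. They are shown for the alpha and pi members whose window holds the core TGACNNNGC of the antioxidant response element, through which NRF2 is known to act on GST genes. The core was sought on both strands and is in capitals.

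Gsta2 (chr8:88077043-88077342, minus strand): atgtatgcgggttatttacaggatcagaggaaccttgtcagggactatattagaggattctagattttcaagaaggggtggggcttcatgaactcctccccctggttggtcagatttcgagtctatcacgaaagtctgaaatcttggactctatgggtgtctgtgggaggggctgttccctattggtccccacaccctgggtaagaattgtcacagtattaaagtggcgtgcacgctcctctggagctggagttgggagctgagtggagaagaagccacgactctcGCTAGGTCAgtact

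Gsta1 (chr9:31216483-31216782, minus strand): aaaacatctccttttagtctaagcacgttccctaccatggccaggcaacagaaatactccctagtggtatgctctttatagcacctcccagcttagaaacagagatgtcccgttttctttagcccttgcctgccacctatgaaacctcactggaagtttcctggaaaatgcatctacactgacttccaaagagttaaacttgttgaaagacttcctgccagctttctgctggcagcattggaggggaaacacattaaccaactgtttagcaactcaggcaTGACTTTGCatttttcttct

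Gsta3 (chr9:31154739-31155038, plus strand, the first of 2 windows): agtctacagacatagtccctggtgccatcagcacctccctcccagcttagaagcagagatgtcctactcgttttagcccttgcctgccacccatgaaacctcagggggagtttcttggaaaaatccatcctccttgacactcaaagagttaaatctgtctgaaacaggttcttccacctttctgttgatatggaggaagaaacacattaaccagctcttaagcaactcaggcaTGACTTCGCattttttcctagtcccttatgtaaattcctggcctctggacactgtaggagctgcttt

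Gstp1 (chr1:210769656-210769955, minus strand): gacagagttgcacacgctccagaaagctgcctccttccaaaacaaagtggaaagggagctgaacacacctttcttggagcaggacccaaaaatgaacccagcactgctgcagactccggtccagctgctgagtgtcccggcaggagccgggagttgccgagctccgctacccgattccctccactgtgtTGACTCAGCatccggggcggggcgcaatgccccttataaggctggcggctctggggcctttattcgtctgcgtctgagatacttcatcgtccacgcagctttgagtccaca

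In these windows the start lies after base 250. The core was at bases 287 to 295 in Gsta2, on the opposite strand, at bases 281 to 289 in Gsta1, 234 to 242 in Gsta3 and 190 to 198 in Gstp1. It was also in the windows of Gstm7 and Gstz1, so that 6 of 27 members held it, beside 12.1% of all 33469 promoter windows. The core GCGTG of the xenobiotic response element was in 7 members, among them Gsta2, Gstp1 and Mgst3, and in 29.7% of all windows. A match describes the letters only, and promoters of Gstt1, Gstt2, Mgst2, Sult4a1, Ugt1a5, Ugt2a1 and Gstm6l were not used here.

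Gstp1 (ENSRNOG00000018237), the pi-class GST known in rat liver from bile duct cells and preneoplastic foci, had 11.1, 8.89, 8.41 and 9.42 CPM with FSH, against 8.64, 20.9, 8.76, 9.83 and 9.41 CPM with vehicle. All animals but vehicle replicate 2 lay within the same narrow range. The fitted log2 difference was −0.29 (SE 0.26, FDR 0.714 in edgeR), and 0.04 without vehicle replicate 2. Bile duct markers summed to 9.33 to 17.7 CPM with FSH and 11.9 to 20.7 CPM with vehicle, and in vehicle replicate 2 they were at 19.3 CPM. They were higher in vehicle replicates 1 and 4 (19.75 and 20.7 CPM), where Gstp1 was at 8.64 and 9.83 CPM. Vehicle replicate 2 was also the highest for Gsta2, Gsta3, Gsta5, Gsto2 and Gstt3. The same held for Gclc, the rate-limiting enzyme of glutathione synthesis, at 291 CPM, against 148 to 165 CPM in the other vehicle animals. The part of bile duct cells, or of anything shared with these genes, in the Gstp1 value of vehicle replicate 2 was not tested.

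Gstm1 (ENSRNOG00000029726) stood at 431, 665, 712 and 516 CPM with FSH, against 499, 780, 795, 655 and 699 CPM with vehicle. The lowest value was in FSH replicate 1 and vehicle replicate 1 was low as well. FSH over vehicle, this was a log2 fold change of −0.24 (SE 0.17, FDR 0.643 in edgeR), with −0.12 without FSH replicate 1 and −0.33 without vehicle replicate 1. Gstm7 (ENSRNOG00000018937) averaged 323 ± 79.3 CPM with FSH and 408 ± 103 CPM with vehicle, a log2 fold change of −0.34 (SE 0.22, FDR 0.597 in edgeR), with −0.19 without FSH replicate 3 and −0.22 without vehicle replicate 1. Gstm4 had −0.08, and 0.11 without FSH replicate 3. Gstm6l, with 0 to 5 reads, was not tested.

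Among the remaining cytosolic and mitochondrial classes, Gstz1 (ENSRNOG00000047708), the maleylacetoacetate isomerase of tyrosine breakdown, averaged 567 ± 84.9 CPM with FSH and 650.4 ± 98.7 CPM with vehicle. On the log2 scale it had −0.20 (SE 0.14, FDR 0.620 in edgeR), with −0.12 without FSH replicate 3 and also without vehicle replicate 1. Gstk1, the kappa-class enzyme of mitochondria and peroxisomes, had −0.26 (SE 0.17, FDR 0.597 in edgeR), with −0.14 without FSH replicate 1 and −0.40 without FSH replicate 2. Gsto2 (ENSRNOG00000012801), an omega-class enzyme that reduces dehydroascorbate, averaged 108 ± 5.43 CPM with FSH and 108 ± 13.8 CPM with vehicle. Its difference was 0.00 on the log2 scale, with a 95% interval of −0.21 to 0.22.

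The microsomal enzymes belong to a separate membrane family. Mgst3 (ENSRNOG00000004245), which has glutathione peroxidase and leukotriene C4 synthase activity, had 34.2, 51.7, 28.9 and 57.5 CPM with FSH, against 65.3, 58.2, 71.8, 51.9 and 56.8 CPM with vehicle. FSH replicates 1 and 3 were well below the vehicle animals and FSH replicate 4 was inside their range. This gave a log2 fold change of −0.50 (SE 0.19, FDR 0.378 in edgeR). Mgst1 (ENSRNOG00000007743), the main microsomal transferase of hepatocytes, stood at 2094, 2087, 1906 and 2439 CPM with FSH, against 2815, 2361, 2611, 2266 and 2133 CPM with vehicle. Of the FSH animals 3 were below every vehicle animal. The difference on the log2 scale was −0.19 (SE 0.11, FDR 0.550 in edgeR). Mgst2, which takes part in leukotriene synthesis, had −0.04 (95% interval −0.37 to 0.29, FDR 0.944 in edgeR).

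**Figure D4:**
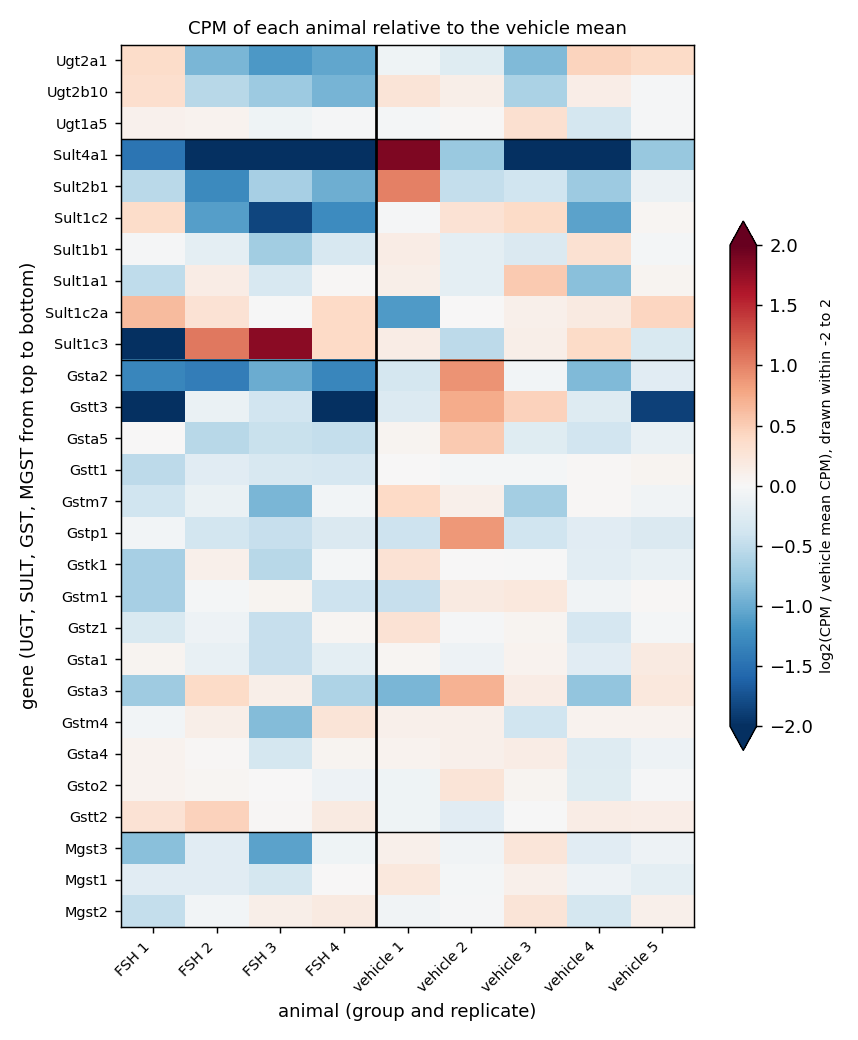
Log2 of each animal's CPM over the vehicle mean (colour, drawn within −2 to 2) for the 28 tested genes in rows, with FSH animals in the left 4 columns and vehicle animals in the right 5. FSH replicate 3 is the lowest animal in 12 rows. The Gstt1 row is among several, such as Gsta2 and Mgst3, that are below the vehicle mean in all 4 FSH columns.

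The map by animal shows that the lower values were not evenly spread over the FSH group. FSH replicate 3 was the lowest of the 9 animals in 12 of the 28 tested members, and FSH replicate 1 in 6. Over all tested genes these animals were lowest in 12.3% and 13.9%. FSH replicate 3 also had the lowest albumin share (10.5%) and the highest erythroid marker sum (490.1 CPM, next 252.4 CPM). Its hepatocyte marker sum was the lowest as well (170200 CPM), but albumin made up 101300 CPM of it, so this largely repeats the albumin share. The part of these in the low values of FSH replicate 3 was not tested. For a median per animal, each member's log2 CPM was taken relative to the mean of the vehicle log2 values, whereas the map uses the mean vehicle CPM. This median was −0.12, −0.09, −0.38 and −0.14 in FSH replicates 1 to 4, and 0.06, 0.06, 0.07, −0.21 and 0.00 in vehicle replicates 1 to 5. Vehicle replicate 4 was thus lower than 3 of the FSH animals by this measure.

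Genes that supply the cofactors, remove conjugates or control the family were examined as lists, in none of which a gene passed an FDR of 0.05. For UDP-glucuronic acid supply 4 of 7 tested genes were higher (median log2 fold change 0.08), with values of 0.29 (SE 0.21) for Ugdh, which makes UDP-glucuronic acid, and 0.27 (SE 0.21) for Ugp2, which makes UDP-glucose. For sulfate and PAPS supply 5 of 7 were lower (median −0.12). Papss1, a PAPS synthase, had 3.57, 4.79, 4.47 and 4.84 CPM with FSH, against 4.98, 4.93, 6.43, 6.47 and 5.69 CPM with vehicle. Its groups did not overlap, and the log2 fold change was −0.37 (SE 0.14, FDR 0.363 in edgeR). Suox, the sulfite oxidase that yields sulfate, had −0.37 (SE 0.15, FDR 0.399 in edgeR).

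For glutathione synthesis and turnover 9 of 13 tested genes were lower (median −0.17). Cbs, which directs homocysteine towards cysteine, had 224, 243, 176 and 241 CPM with FSH, against 322, 305, 272, 254 and 246 CPM with vehicle. Every FSH animal was below the vehicle range, and the log2 fold change was −0.34 (SE 0.12, FDR 0.346 in edgeR). Oplah, the 5-oxoprolinase, had 0.38 (SE 0.15, FDR 0.387 in edgeR), and Gclc −0.55 (SE 0.23, FDR 0.393 in edgeR).

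Efflux carriers were mostly higher with FSH, with 6 of 8 tested genes above 0 (median 0.20). Abcb1a, a drug efflux pump, stood at 176, 140.5, 139 and 129 CPM with FSH, against 92.6, 94.3, 103, 94.6 and 103 CPM with vehicle. The FSH animals were all above the vehicle animals, and the log2 fold change was 0.58 (SE 0.09, FDR 0.0843 in edgeR). Abcg2, a carrier of sulfate and other conjugates, had 0.69 (SE 0.28, FDR 0.390 in edgeR). Other conjugating enzymes divided evenly, with 8 of 15 lower (median −0.01). The smallest p was that of Glyat, the glycine transferase, at 0.32 (SE 0.12). Of 6 genes listed for deconjugation 4 were lower (median −0.06). The smallest p were those of 2 sulfatase modifying factors, which do not remove conjugates themselves: Sumf1 at −0.11 (SE 0.07) and Sumf2 at −0.15 (SE 0.095).

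Regulators of the family were higher in 16 of 21 tested genes (median 0.17). Their summed level was 2537 to 2621 CPM in FSH animals and 2110 to 2375 CPM in vehicle animals, without overlap. Taken singly, 0 of the 21 genes separated the groups. Abundant genes weigh most in the sum, such as Hnf4a (means of 647 CPM with FSH and 547 CPM with vehicle) and Cebpa (399 and 333 CPM). No share over all genes stands beside such a sum. The corepressor Nr0b2 had −0.72 (SE 0.27, FDR 0.367 in edgeR) and Stat5b, which carries the growth hormone signal, 0.29 (SE 0.11, FDR 0.377 in edgeR). NRF2 itself (Nfe2l2) averaged 142 ± 20.5 CPM with FSH and 133 ± 11.3 CPM with vehicle, a log2 fold change of 0.09 (SE 0.11, FDR 0.780 in edgeR). Of its known targets outside the family 10 of 15 were lower (median −0.13), with Ephx1, the microsomal epoxide hydrolase, at −0.45 (SE 0.17, FDR 0.358 in edgeR) and Me1, malic enzyme, at −0.92 (SE 0.38, FDR 0.393 in edgeR). Targets of CAR, PXR and the aryl hydrocarbon receptor were lower in 7 of 13 tested genes (median −0.22), with Gadd45b at 0.69 (SE 0.22, FDR 0.315 in edgeR) and Cyp2b3 at −0.45 (SE 0.15, FDR 0.334 in edgeR). The sex-dependent list mixes female-type genes, such as A1bg, with male-type genes, such as Cyp2c13, so its pooled count and median show no direction. Of these genes 4 of 7 were lower (median −0.07), with A1bg at 1.25 (SE 0.36, FDR 0.258 in edgeR) and Hsd11b1 at −1.38 (SE 0.40, FDR 0.274 in edgeR). The other tested genes had 0.58 (Prlr), 0.08 (Cyp2c12), −0.07 (Srd5a1), −0.19 (Dhrs7) and −0.67 (Cyp2c13).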

How the data were processed

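Messenger RNA of liver from 9 rats was sequenced as paired-end stranded libraries, 1 per animal, per the labels' protocols. The authors deposited whole-number read counts per gene, not normalised. STAR, edgeR, DESeq2 and the rn6 build appear in the submitters' processing notes, with no versions or roles. Which annotation and strand setting the authors counted with is not given in the sources used here. Columns were matched to animals by their labels.

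All 9 libraries entered 1 fit in edgeR 4.0.16 (R 4.3.3), with its filter by group, scaling by trimmed mean of M values, the 2-sided quasi-likelihood F-test and the Benjamini-Hochberg FDR. The 11924 genes tested take up 99.96% of counts. CPM are counts per 1000000 scaled the same way, and 1 read is worth 0.0353 to 0.0532 CPM. Standard errors are the log2 fold change divided by the root of F, and intervals are 95%. Within groups, every pair of libraries differed by more than sampling noise (chi-square over its degrees of freedom at least 25.9).

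Members and lists were chosen with earlier results of these data known. Named with values were members past FDR 0.05, the 10 smallest p, the 5 highest and 5 lowest fold changes from 1 CPM, the 4 most abundant of each class (23 genes in all), and from each pathway list the genes past FDR 0.05 and the 2 smallest p. Others were added after their values were seen. Of the genes this rule names, 1 from a pathway list is not reported here.

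The fit was tested on simulated counts with known changes.

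Alternatives were DESeq2 1.42.0, limma-voom (limma 3.58.1) with quality weights, other scalings and filters, an FDR of 0.10, a replicate block and leaving out each animal.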

Additional observations from a re-analysis of the deposited data

Results flagged for a closer look

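A single animal lay far from the rest of its group in 6 of the 56 combinations of gene (or class sum) and group examined. The rule's rate of about 5% by chance holds for independent, normally distributed values. These CPM were not transformed, the genes were partly chosen by extreme fold changes and class sums contain single genes. The 6 therefore cannot be read as an excess over that rate. FSH replicate 1 was far above the other FSH animals in Ugt2a1 (2883 CPM, next 1181), in the summed UGT counts (3902 CPM, next 1952), which Ugt2a1 makes up for the most part, in Gsta5 (107 CPM, next 78.3) and in Sult4a1 (5.00 CPM, next 0.692). Vehicle replicate 1 was far above the other vehicle animals in Sult4a1 (50.6 CPM, next 8.28) and in Sult2b1 (3.93 CPM, next 1.81). The cause of these values was not tested.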

How the results depend on the processing

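No member passed FDR 0.05 under any edgeR or limma-voom alternative or at FDR 0.10, and DESeq2 called 2. Of all genes 177 passed in DESeq2 and 12 at FDR 0.10, beside 4 in edgeR. On leaving out 1 animal, 0 to 4 genes passed, 0 of them members, 2 to 9 members had an unadjusted p under 0.05, and the members' median log2 fold change lay between −0.30 and −0.18. Of the 23 lower members, 17 were lower in each of 16 alternatives. The other 6, Gsta3, Gsta4, Gstm4, Gstp1, Mgst2 and Sult1a1, changed sign in at least 1. Among the members the naming rule chose, the sign turned in 4: Gsto2 (−0.0014 with DESeq2's size factors, −0.016 with total counts alone, −0.0034 with at least 1 CPM in 4 samples, −0.00076 in DESeq2, −0.055 to 0.070 without 1 animal), Ugt1a5 (−0.00024 with total counts alone, −0.066 to 0.11 without 1 animal), Mgst2 (−0.12 to 0.081 without 1 animal) and Sult1a1 (−0.30 to 0.026 without 1 animal).

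With the replicate number as a block, 5 genes and 0 members passed, 8 members had an unadjusted p under 0.05 and the median was −0.25. Same-numbered animals did not deviate together (correlations between −0.041 and 0.035, none of 4 highest with its own number), so they share only a number.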

Other observations

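Some genes that the annotation describes as conjugating enzymes carry other symbols and were outside the choice by symbol. LOC100912485, described as alcohol sulfotransferase-like, averaged 2416 ± 657 CPM with FSH and 2440 ± 509 CPM with vehicle (SD, n = 4 and 5), with a log2 fold change of −0.01 (SE 0.20, FDR 0.988 in edgeR). LOC501110, described as similar to an alpha-class GST, had 12.1 ± 2.50 CPM with FSH and 10.7 ± 1.23 CPM with vehicle, and a log2 fold change of 0.18 (SE 0.14, FDR 0.671 in edgeR). LOC100910526, described as sulfotransferase 1C2-like, had −1.33 (SE 0.72, FDR 0.517 in edgeR) with means of 0.572 CPM in FSH animals and 1.46 CPM in vehicle animals.

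Vehicle replicate 3 was the highest of the 9 animals in 7 of the 28 tested members, and vehicle replicates 1 and 2 in 6 each, where over all tested genes they were highest in 10.6%, 13.7% and 14.4%. These counts are a description, since members that share a locus or a regulator are not independent.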
